A study of Mus musculus with 16 samples.

Results

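The interaction of genotype with sleep deprivation (SD) was examined in mouse somatosensory cortex, that is, for each gene the change with SD in AcPb-/- mice minus the change with SD in wild-type mice. All libraries with a column in the deposited tables were taken, which were 12 of the 16 samples the labels describe, 3 in each of 4 groups. The remaining 4 samples were not analysed here. CTL-WT were undisturbed C57BL/6 wild-type mice (C57BL/6J in the study's methods), SD-WT were wild-type mice that gentle handling kept awake for 8 h from ZT20 to ZT4, CTL-AcPbKO were undisturbed AcPb-/- mice and SD-AcPbKO were AcPb-/- mice given the same SD. All mice were collected at ZT4, that is, 4 h after light onset, at an age of 2 to 3 months. The labels give them as male homozygous offspring of mice from Jackson Laboratories that had been bred for several generations at the university. They do not say that wild-type and AcPb-/- mice were littermates, so genotype and breeding line cannot be told apart. The labels number single mice and give no shared day or litter, so the p-values measure the spread between these mice.

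Interleukin-1 (IL1) signals through its receptor and an accessory protein, the product of Il1rap. Neurons also make AcPb, a splice form of the accessory protein with a different end inside the cell, and AcPb-/- mice lack this form and keep the form that other cells share. IL1 promotes sleep, and loss of sleep changes the level of many cortical RNAs, among them those of chaperones, clock components, activity-induced factors and sterol synthesis enzymes. A gene that answers SD alike in both genotypes has an interaction of 0 on the log2 scale, whatever the size of its answer.

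The reads counted on genes ranged from 26504840 to 41615582 in the 6 control libraries and from 58770286 to 71857505 in the 6 SD libraries, so depth moved with SD in both genotypes and differed less between genotypes. The labels call every mouse male, but reads of Xist, an RNA made from an inactive X chromosome, were abundant in CTL-WT 02 and 03 and in CTL-AcPbKO 04 and 05 and in no SD library. The 4 libraries stood against their label in equal numbers in the 2 genotypes, which leaves 1 control of each genotype without such reads. The spread between controls, on which the p-values rest, therefore includes this difference. The SD effects within each genotype also carry it, since no SD library had such reads. Xist had log2 SD effects of -8.75 in wild-type and -8.78 in AcPb-/- mice, and the Y-linked Kdm5d had 6.77 and 7.06. SD and this difference can thus be told apart only in part within a genotype. With a term for libraries with Xist reads, the SD calls over all genes were 4057 in wild-type and 5189 in AcPb-/- mice. Counts without the 4 libraries, which were lower, are given for several lists below. They come from a fit with fewer libraries and 1 control of each genotype. Choroid plexus markers were high in SD-AcPbKO 04 alone, and striatal markers varied from library to library. Below, the values of single libraries are normalized counts, always in the order CTL-WT 01, 02 and 03, SD-WT 01, 02 and 04, CTL-AcPbKO 03, 04 and 05, and SD-AcPbKO 02, 03 and 04. Effects are differences of log2(normalized count + 1) from limma, with 95% intervals in brackets, and a gene was called at a Benjamini-Hochberg adjusted p under 0.05 over the 20978 genes tested.

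No gene was called for the interaction, while many were called for SD in each genotype. In wild-type mice 2663 genes (12.7% of those tested) were upregulated and 2445 (11.7%) downregulated. In AcPb-/- mice 3300 (15.7%) were upregulated and 3185 (15.2%) downregulated. For the interaction, limma called 0 genes higher (0%) and 0 lower (0%), with a smallest adjusted p of 0.986. An unadjusted p under 0.05 was reached by 432 genes with a higher effect in AcPb-/- mice (2.06%) and by 407 with a lower one (1.94%). edgeR's quasi-likelihood test on recovered reads also called 0 genes, with 711 at an unadjusted p under 0.05, and DESeq2 called 1, Polr2k, with 549 at an unadjusted p under 0.05.

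The SD effects of the genotypes ran together across genes. The contrasts share no library. In both genotypes, however, the SD libraries were deeper than the controls, and abundant Xist reads occurred only in controls. The part of these shared differences in the likeness of the effects was not tested. Of the genes called in wild-type mice 98.7% had the same sign in AcPb-/- mice, and of those called in AcPb-/- mice 98.1% had the same sign in wild-type mice. Both genotypes called 4230 genes, which is 82.8% of the wild-type calls and 65.2% of the AcPb-/- calls. Of these, 4228 moved in the same direction. The other 2, Mgst2 and Mir6940, had few reads in every library. Over the 13121 genes whose normalized counts averaged at least 100, Pearson's r between the effects was 0.905 and Spearman's rho 0.891, and over the 16062 genes with a mean of at least 10 they were 0.821 and 0.831. These correlations are across genes, which are not independent replicates. A further 878 genes were called in wild-type mice alone, of which 812 had the same sign in AcPb-/- mice and 135 had an unadjusted interaction p under 0.05. Of the 2255 genes called in AcPb-/- mice alone, 2137 had the same sign in wild-type mice and 302 had an unadjusted interaction p under 0.05. Over all genes tested, 839 (4%) had such a p. Picking genes called in 1 genotype alone itself favours a small interaction p. Being called in 1 genotype alone was therefore not a measured difference between the genotypes.

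**Figure D1:**
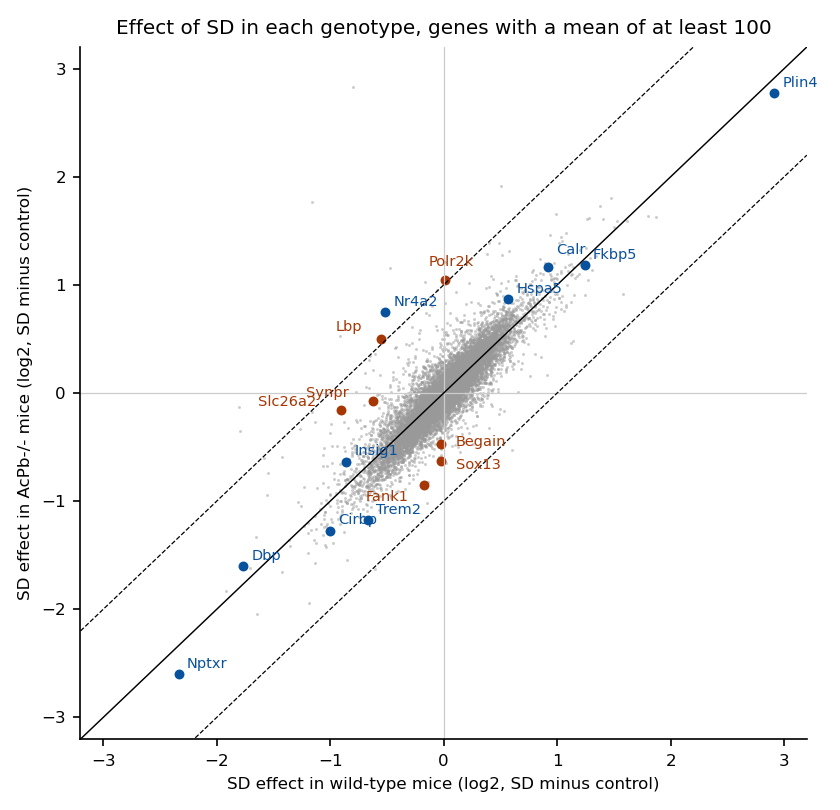
Each point is a gene whose normalized counts averaged at least 100, with its SD effect in wild-type mice (log2, horizontal) and in AcPb-/- mice (log2, vertical). The points lie along the line of equal effects (Pearson's r of 0.905), and 13116 genes are drawn because 5 lie outside the axes.

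Among the 108 genes with a mean of at least 100 that were called in wild-type mice with a log2 effect of at least 1 in either direction, 94 were called in AcPb-/- mice with the same sign. The other 14 were not called there and had the same sign as in wild-type mice. The AcPb-/- effects of those named here were -0.95 for Rnaset2b, -0.87 for Serpinb1a, -0.60 for Col8a2, -0.59 for Thbs1, -0.57 for Hist1h1c, -0.51 for Zfp459, -0.37 for Gpr21, -0.35 for Entpd4, -0.33 for Slc47a1 and -0.18 for Abi3bp among those lower in wild-type mice, and 0.49 for Aldh1a3 and 0.46 for Slc23a3 among those higher. None of the 14 was called for the interaction. Col8a2, a collagen chain, had an SD effect of -1.58 in wild-type mice and an interaction of 0.98 [0.32, 1.65]. Entpd4 reads cannot be assigned with certainty, since every stretch of 100 bases of its exons also occurs in another gene.

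How large an interaction could be missed depended on a gene's level. With 3 libraries a group there were 8 residual degrees of freedom. Limma's prior raised the total to a median of 12.8, which the intervals and the power given below use. The median half-width of the 95% interval was 0.22 on the log2 scale (1.16-fold) for the 6824 genes with a mean of 1000 to 10000. For the 5342 genes from 100 to 1000 the half-width was 0.35 (1.28-fold). It widened to 0.83 (1.78-fold) for the 2941 genes from 10 to 100 and to 1.56 (2.94-fold) for the 2516 genes from 1 to 10. Equivalence was tested with the same limma fit as 2 one-sided tests at an adjusted p under 0.05. An interaction as large as 1 on the log2 scale (2-fold) in either direction was excluded for 14265 genes (68%), and one as large as 0.5 (1.414-fold) for 9937 genes (47.4%). The share within 1 was 95.9% from 100 to 1000 and 99.2% from 1000 to 10000, against 44.8% from 10 to 100 and 0.874% from 1 to 10. The share within 0.5 was 53.7%, 90.4%, 0.272% and 0% in the same order of levels.

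Put the other way, a gene with a mean of 1000 to 10000 and the median error would pass an unadjusted p under 0.05 with 80% power at an interaction of 0.31, and a gene from 100 to 1000 at 0.49. To pass a correction over all genes tested by Bonferroni's rule, the same genes would need 0.95 and 1.53. A gene from 10 to 100 would need 1.16 and 3.61. The median SD effect itself, in absolute value over genes with a mean of at least 10, was 0.21 in wild-type mice and 0.24 in AcPb-/- mice, and the median absolute interaction was 0.10. At the median error, an interaction the size of the median SD effect was thus under what the correction finds with 80% power at any level. The loss of an SD effect of 1 in 1 genotype was within its reach for genes from 1000 to 10000.

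**Figure D2:**
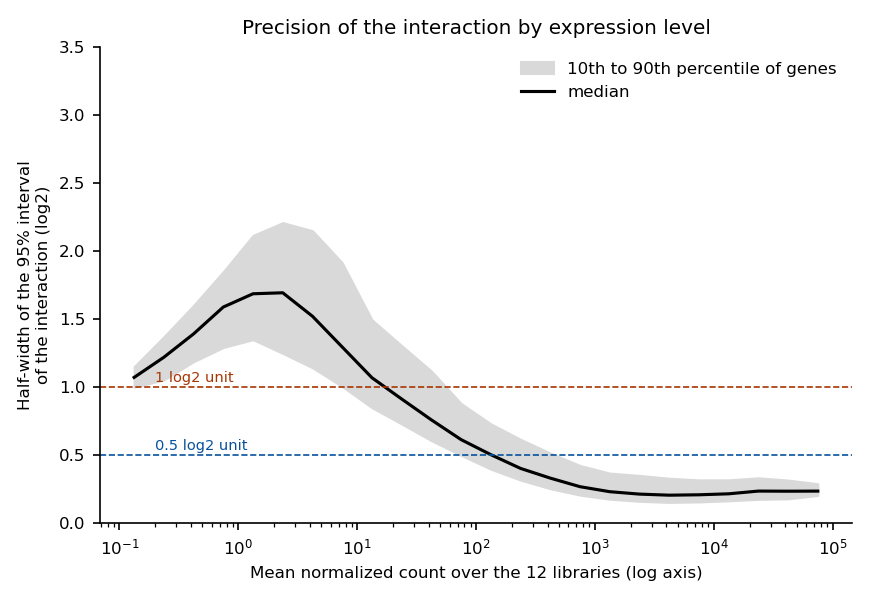
The precision of the interaction as the half-width of its 95% interval (log2, vertical) against the mean normalized count (horizontal, log axis), with the median over genes as a line, the range from the 10th to the 90th percentile of genes in grey and dashed lines at 1 and 0.5. For genes from 1000 to 10000 the median half-width was 0.22 and the line falls below both dashed lines, against a median of 0.83 from 10 to 100.

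The average SD effect over both genotypes, a contrast that is independent in design of the interaction and was chosen after the data were seen, was called for 8707 genes, 4441 of them higher and 4266 lower. In 5824 of these (66.9%) the effect was larger in AcPb-/- mice. The median absolute effect was 0.33 in wild-type mice and 0.37 in AcPb-/- mice, and the median difference in the direction of the effect was 0.053, which is 15.5% of the average effect. For 2989 genes (34.3%) the 95% interval of the interaction lay within the size of the average effect in both directions. A full loss of the effect in 1 genotype would give an interaction larger than the average effect. This limit is thus stricter than a full loss, and the count of genes whose interval leaves out a full loss can be larger. The share with a larger effect in AcPb-/- mice was 57.9% without SD-WT 04 or without SD-AcPbKO 02, where the median difference was 0.028 and 0.025, and 72.3% without SD-AcPbKO 03, where it was 0.082. Single libraries thus moved it by over 1.5 times, and genes are not independent, so it is given as a description.

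Il1rap, which holds the exons of AcPb on chromosome 16 from 26581704 to 26730117 (GRCm38), had normalized counts of 1496, 1476 and 1520 in CTL-WT, 1824, 1920 and 1729 in SD-WT, 1588, 1647 and 1515 in CTL-AcPbKO and 2062, 1928 and 1923 in SD-AcPbKO. Every SD library was above every control in both genotypes. The SD effect was 0.28 (adjusted p = 0.00357) in wild-type mice and 0.32 (adjusted p = 0.00122) in AcPb-/- mice, and the interaction was 0.03 [-0.14, 0.21]. Counts per gene do not separate exons, so the gene's total does not check the deletion.

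The genes nearest to an interaction, taken as the 5 smallest unadjusted p in each direction among genes with a mean of at least 100, all had an adjusted p of 0.986. The higher ones were Polr2k, a small subunit shared by the RNA polymerases, Lbp, which binds lipopolysaccharide, the synaptic vesicle protein Synpr, the sulfate transporter Slc26a2 and the RNA methyltransferase Mettl16. Polr2k had 456, 400 and 434 normalized counts in CTL-WT, 416, 408 and 477 in SD-WT, 198, 127 and 224 in CTL-AcPbKO and 342, 382 and 381 in SD-AcPbKO. The 3 undisturbed AcPb-/- libraries were below all others, and the SD effects were 0.01 in wild-type and 1.04 (adjusted p = 0.00055) in AcPb-/- mice, an interaction of 1.03 [0.52, 1.54]. DESeq2 called it (0.98, adjusted p = 0.0486), and 13.7% of its 100-base stretches occur in other genes. Lbp fell with SD in wild-type mice, from 122.8, 111 and 97.2 to 93.7, 63.1 and 70.4 (-0.55, adjusted p = 0.0435), and in AcPb-/- mice went from 91.3, 77.7 and 103 to 130, 113 and 143 (0.50, adjusted p = 0.054), an interaction of 1.05 [0.49, 1.61]. Neither genotype's SD and control libraries overlapped.

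Synpr fell in wild-type mice from 5762, 5620 and 5549 to 3612, 3502 and 3882, an effect of -0.62 (adjusted p = 0.00094). In AcPb-/- mice it had 5388, 4501 and 3939 in controls and 4113, 4138 and 4833 after SD, which overlap (effect -0.07), and the interaction was 0.55 [0.26, 0.85]. Slc26a2 had effects of -0.90 and -0.15, and Mettl16 was upregulated in both genotypes, by 0.52 and 0.89. Of the lower genes, the transcription factor gene Sox13 had 377, 396 and 378 in CTL-WT, 392, 383 and 359 in SD-WT, 472, 500 and 518 in CTL-AcPbKO and 321, 347 and 298 in SD-AcPbKO. Its AcPb-/- controls were above all other libraries and its SD-AcPbKO libraries below them, with effects of -0.02 and -0.62 and an interaction of -0.60 [-0.86, -0.35]. Begain, a protein of the postsynaptic density, had effects of -0.02 and -0.47 and an interaction of -0.45 [-0.65, -0.24]. The remaining lower genes were Fank1 (-0.17 and -0.85), Plekhg5 (0.06 and -0.23) and Igfn1 (-0.34 and -0.89).

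**Figure D3:**
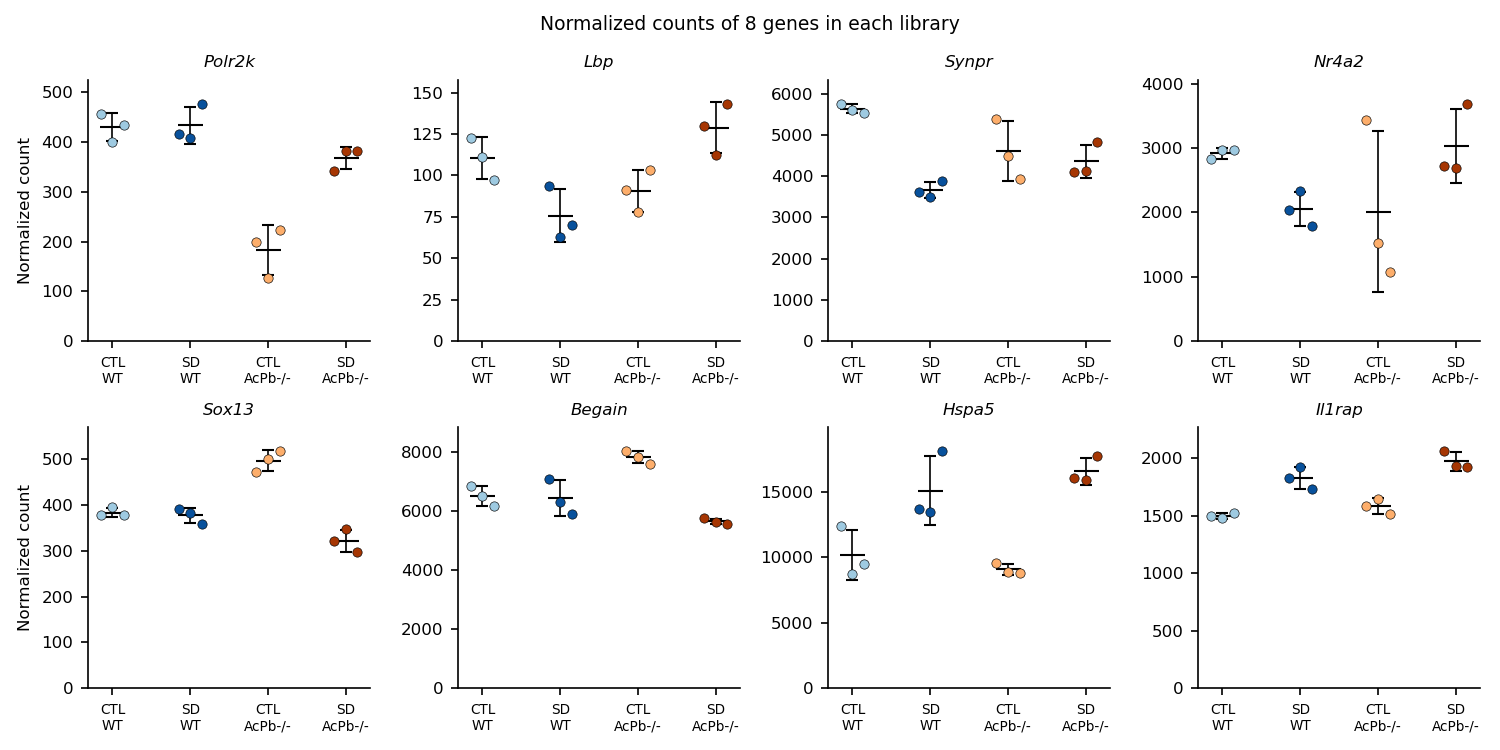
Normalized counts of 8 genes in each of the 12 libraries, 1 point a library, with the axis from 0 and the mean and SD (n = 3) of each group. Polr2k (127 to 224) and Sox13 (472 to 518) stand apart in the CTL-AcPbKO libraries, while Hspa5 and Il1rap are higher after SD in both genotypes.

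Whether any gene was called depended on the model and on 1 control library. With all libraries, DESeq2 called Polr2k and limma without the variance trend called 1700012H19Rik and Mir3092. Without CTL-AcPbKO 03, limma called 9 genes for the interaction, chosen here after their values were seen. Nr4a2, Gnb4, Foxp2, Sstr2, B3gat2, Tmem163, Cfap36 and Spsb1 were higher and Igfn1 lower. CTL-AcPbKO 03 had 12 Xist reads, against 25352 and 30306 in CTL-AcPbKO 04 and 05. Without it, all AcPb-/- controls had abundant Xist reads while 1 wild-type control did not. The libraries with Xist reads were then no longer balanced between the genotypes. Leaving out CTL-WT 01, the wild-type control without abundant Xist reads, unbalanced them as well. In that fit limma called 0 genes for the interaction, with a smallest adjusted p of 0.984. Nr4a2, a nuclear receptor that also marks neurons of the claustrum and deepest cortical layer, had 2822, 2971 and 2960 normalized counts in CTL-WT, 2040, 2329 and 1794 in SD-WT, 3427, 1529 and 1073 in CTL-AcPbKO and 2715, 2682 and 3686 in SD-AcPbKO. CTL-AcPbKO 03 was above every CTL-WT library and the other CTL-AcPbKO libraries were below every SD-WT library. The interaction of Nr4a2 was 1.26 [0.35, 2.18] with all libraries and 1.74 (adjusted p = 0.0152) without that one. Gnb4, a G protein subunit with the same known location, had 1975, 1411 and 1152 in CTL-AcPbKO, and its interaction was 0.79 with all libraries and 0.996 (adjusted p = 0.0271) without CTL-AcPbKO 03. Foxp2, a factor of deep-layer neurons, went from 1.19 to 1.80 (adjusted p = 0.0118). Whether the dissected tissue differed between these libraries was not tested, and neither was the part of the libraries with Xist reads in these calls.

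At the level of gene families and pathways, 64 lists with 2795 different genes were described. In 57 of them at least 10 members had a mean of at least 10, and the median interaction over those members ran from -0.19 (microglia markers) to 0.64 (choroid plexus markers), against -0.002 over all genes. It was within 0.1 of 0 in 43 lists and within 0.2 in 54. The other 3 were markers of myelin (0.33), striatal neurons (0.61) and choroid plexus (0.64). No list had a member called for the interaction. Counts of members called with SD stand against 12.7% up and 11.7% down over all genes in wild-type mice. In AcPb-/- mice these shares were 15.7% and 15.2%. For an unadjusted interaction p under 0.05 in limma they were 2.06% higher and 1.94% lower. A count near such a share is not a trait of its list.

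**Figure D4:**
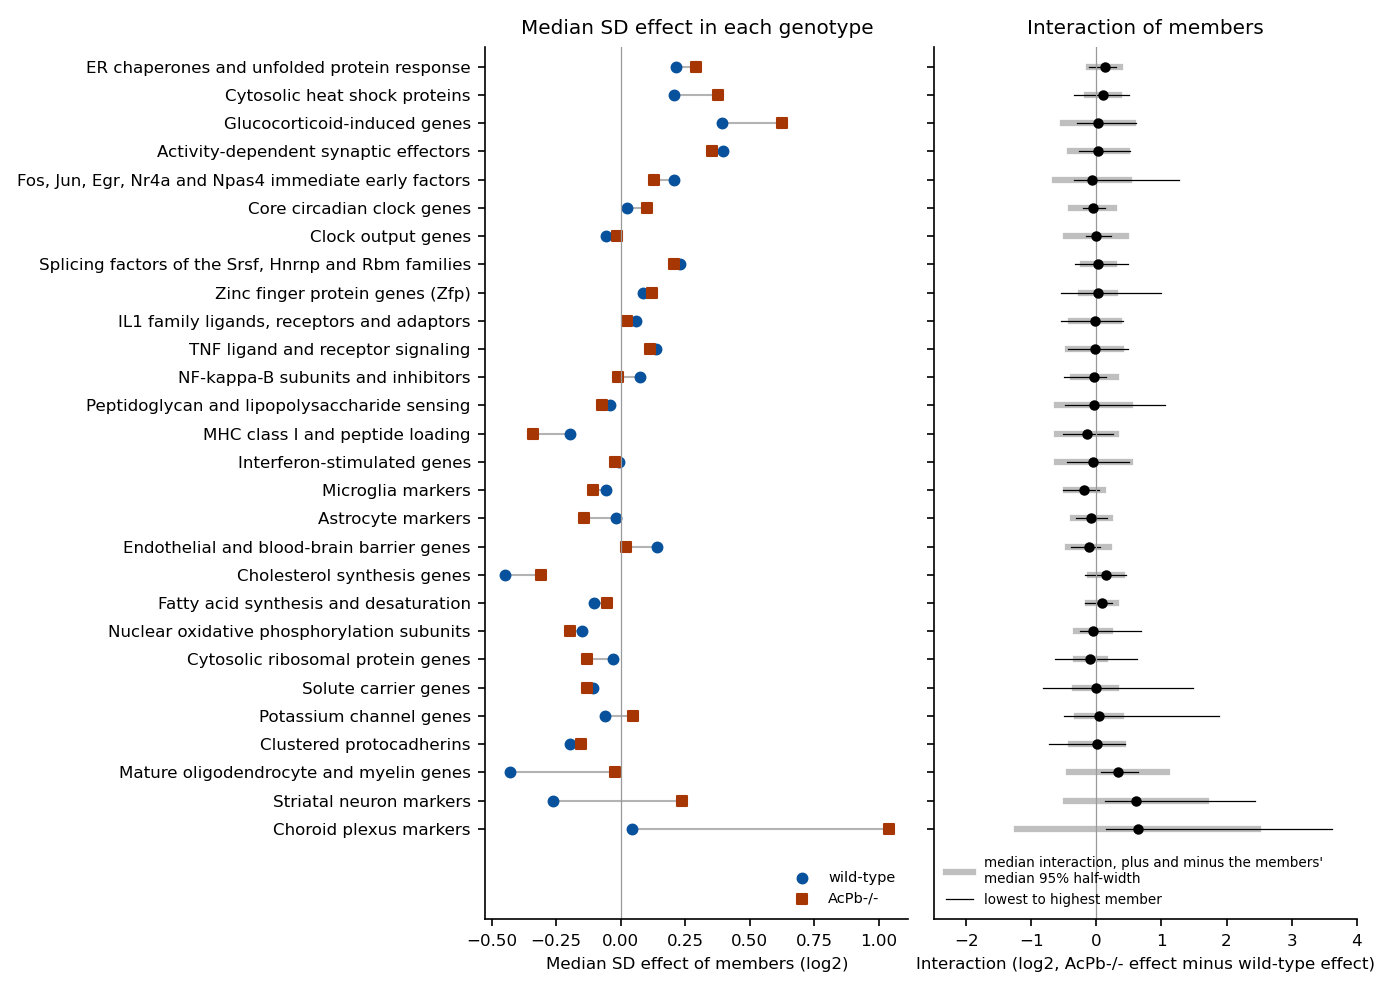
For selected lists, the left panel shows the median SD effect of members (log2) in wild-type and AcPb-/- mice, and the right panel the median interaction (point) with the members' median 95% half-width (grey bar) and the range of members (thin line). The medians of ER chaperones (0.21 and 0.29) and cholesterol synthesis genes (-0.45 and -0.31) lie on the same side of 0 in both genotypes, and myelin, striatal and choroid plexus markers have the medians farthest from 0 in the right panel.

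Endoplasmic reticulum (ER) chaperones and factors of the unfolded protein response, which fold secreted proteins and sense misfolded ones, were more often upregulated than downregulated in both genotypes. Of 26 members tested, 12 were upregulated and 1 downregulated in wild-type mice, and 18 were upregulated and 1 downregulated in AcPb-/- mice. In the libraries without Xist reads, 3 and 9 were upregulated. The medians were 0.21 and 0.29. The median interaction was 0.13, between 0.09 and 0.18 when single libraries were left out and 0.21 in the libraries without Xist reads. It was higher at an unadjusted p under 0.05 in 3 members and lower in 0, and an interaction of 1 was excluded for all 26 and one of 0.5 for 21.

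Part of this list shares a promoter motif, the ER stress response element, to which ATF6 and NF-Y bind. The letters CCAAT and CCACG, with any 9 bases between them, were searched on both strands in the 250 bases before the start of each gene (RefSeq, GRCm38.p6). They were found in 9 of 22 members with a promoter (40.9%), against 23 of 15076 genes (0.153%). The same search was run on further lists described below. A heat shock element was found in 3 of 26 genes of the heat shock protein list (11.5%, against 0.531% of all genes), Dnajb6, Hspd1 and Hspe1. The windows of Hspd1 and Hspe1 overlap on opposite strands and hold the same matches, so these are not separate sites. A sterol response element was found in 1 of 17 cholesterol synthesis genes (5.88%, against 1.3%). Each motif was picked to go with its list, so these shares are descriptions. The promoters of 3 strongly changed chaperones are shown, 5′ to 3′ on the gene's strand, with the matches in capitals. They are Hspa5 (chr2:34771840-34772089, plus strand), Hsp90b1 (chr10:86705445-86705694, minus strand, with 2 matches) and Calr (chr8:84846932-84847181, minus strand).
Hspa5: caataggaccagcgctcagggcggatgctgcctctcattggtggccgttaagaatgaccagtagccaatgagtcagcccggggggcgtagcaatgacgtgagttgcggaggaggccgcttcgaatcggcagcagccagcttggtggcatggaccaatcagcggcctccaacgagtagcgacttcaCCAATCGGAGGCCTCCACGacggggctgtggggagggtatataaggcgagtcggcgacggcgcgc
Hsp90b1: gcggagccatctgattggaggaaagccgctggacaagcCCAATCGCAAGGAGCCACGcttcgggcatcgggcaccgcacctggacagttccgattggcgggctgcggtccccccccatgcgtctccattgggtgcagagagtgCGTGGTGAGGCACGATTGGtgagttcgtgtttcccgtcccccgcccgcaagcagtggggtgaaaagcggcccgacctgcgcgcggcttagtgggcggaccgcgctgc
Calr: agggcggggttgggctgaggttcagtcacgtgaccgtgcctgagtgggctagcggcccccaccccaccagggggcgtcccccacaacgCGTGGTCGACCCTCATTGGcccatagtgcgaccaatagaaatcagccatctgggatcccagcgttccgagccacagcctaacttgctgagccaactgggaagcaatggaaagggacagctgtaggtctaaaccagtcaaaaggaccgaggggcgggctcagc
The 9 members with the motif had median SD effects of 0.42 and 0.60 and a median interaction of 0.16. The members without it had 0.06 and 0.20, with a median interaction of 0.11. A match is a description of letters in this window and not a measured binding site.

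Hspa5, the main chaperone of the ER, had 12375, 8752 and 9489 normalized counts in CTL-WT, 13675, 13499 and 18120 in SD-WT, 9546, 8880 and 8832 in CTL-AcPbKO and 16046, 15900 and 17760 in SD-AcPbKO. Controls and SD libraries did not overlap in either genotype, with effects of 0.57 (adjusted p = 0.00649) and 0.87 (adjusted p = 0.000331) and an interaction of 0.30 [-0.09, 0.69]. Hsp90b1, its partner of the Hsp90 family, had 17545, 15056 and 16455 in CTL-WT, 26978, 28437 and 30410 in SD-WT, 14097, 14954 and 13692 in CTL-AcPbKO and 29101, 28243 and 31461 in SD-AcPbKO. After SD the genotypes overlapped, and every AcPb-/- control was below every wild-type control. The effects were 0.81 and 1.05 and the interaction 0.25 [0.03, 0.47], with an unadjusted p of 0.0314 in limma. The lectin chaperone gene Calr had effects of 0.92 and 1.17, Pdia3, a disulfide isomerase, 0.59 and 0.83, and the secreted factor gene Manf 0.51 and 0.74. Atf6, the sensor that becomes a transcription factor, had the lowest interaction of the list, -0.12, with effects of 0.44 and 0.32.

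Heat shock proteins, mostly cytosolic but with the mitochondrial Hspd1 and Hspe1 among them, moved the same way. Of 32 members, 15 were upregulated and 2 downregulated in wild-type mice, 19 and 2 in AcPb-/- mice, with medians of 0.21 and 0.38. The counts upregulated were 3 and 10 in the libraries without Xist reads. The median interaction was 0.10, from 0.07 to 0.12 with single libraries left out, and 3 members were higher at an unadjusted p under 0.05. Hspa8, the constitutive Hsp70, had effects of 0.83 and 0.98, although 28.5% of its 100-base stretches occur in other genes. Its nucleotide exchange factor Hsph1 had 0.72 and 0.96. Cryab, a small heat shock protein also abundant in oligodendrocytes, had the highest interaction, 0.51 [-0.08, 1.10], with effects of 0.14 and 0.65. In contrast, targets of ATF4, the factor of the integrated stress response, were mostly downregulated where called. They were 2 up and 6 down in wild-type and 1 up and 8 down in AcPb-/- mice of 24, with a median interaction of -0.06. The wild-type count of downregulated members was 3 without CTL-WT 02.

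Genes of cholesterol synthesis and uptake, which sterol-sensing factors control together, were mostly downregulated in both genotypes. Of 25 members 16 were downregulated in wild-type and 15 in AcPb-/- mice, and 1 was upregulated in each. In the libraries without Xist reads 6 and 7 were downregulated. The median effect was -0.45 in wild-type mice and -0.31 in AcPb-/- mice. The median interaction of 0.15 ran against the SD effect, from 0.10 to 0.18 with single libraries left out, and was higher at an unadjusted p under 0.05 in 3 members and lower in 0. Insig1, which holds the sterol sensor in the ER, had 3500, 3625 and 3286 normalized counts in CTL-WT, 1890, 1927 and 1927 in SD-WT, 2956, 3083 and 3428 in CTL-AcPbKO and 1918, 2294 and 1901 in SD-AcPbKO. All controls lay above all SD libraries, with effects of -0.86 and -0.63 and an interaction of 0.22 [-0.01, 0.46].

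Within the pathway, Hmgcs1, an early enzyme, had effects of -0.63 and -0.33, and the later enzyme gene Sqle had -0.56 and -0.29, with an interaction of 0.27 [0.02, 0.51]. Idi1, an isomerase of the isoprenoid steps, was called in neither genotype (-0.26 and 0.20) and had the highest interaction, 0.45 [0.08, 0.82], and 21.9% of its 100-base stretches occur in other genes. An interaction of 1 was excluded for all 25 members. Fatty acid synthesis and desaturation genes had a median interaction of 0.08 over 16 members, of which 0 passed an unadjusted p under 0.05.

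Glucocorticoid-induced genes, a readout of the stress hormone corticosterone, had a median interaction near 0. Of 27 members, 13 were upregulated in wild-type and 16 in AcPb-/- mice and 2 were downregulated in each. The median interaction was 0.03, from -0.10 to 0.13 with single libraries left out. The lipid droplet gene Plin4 had the largest effect, from 68.4, 155 and 98.4 in CTL-WT to 966, 940 and 506 in SD-WT, and from 75.7, 118 and 106 in CTL-AcPbKO to 903, 443 and 773 in SD-AcPbKO. Its SD libraries were all above its controls, with effects of 2.92 and 2.77, and the interval of its interaction was wide (-0.15 [-1.17, 0.88]). Fkbp5, which tempers the glucocorticoid receptor, had 1.24 and 1.18, and Zbtb16, a zinc finger factor, had 1.06 and 0.76. Angptl4, an inhibitor of lipoprotein lipase, was called in AcPb-/- mice alone (0.24 and 0.84), with an interaction of 0.60 [-0.11, 1.32].

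Clock genes, which form the transcription loops that time the day, had medians near 0. Of 15 core clock genes, 6 were upregulated and 3 downregulated in wild-type mice and 5 and 3 in AcPb-/- mice, with 0 at an unadjusted interaction p under 0.05 and a median interaction of -0.06. The 3 downregulated in wild-type mice became 0 without CTL-WT 03. The repressor gene Per2 had effects of 1.04 and 0.90. Among 12 clock output genes the median interaction was -0.01. Dbp, a direct target of the clock, had -1.77 and -1.60, and 18% of its exons overlap Sphk2 on the other strand. Cirbp, an RNA-binding protein induced by cold, had 2517, 2663 and 2340 normalized counts in CTL-WT, 1251, 1246 and 1244 in SD-WT, 2977, 3268 and 3233 in CTL-AcPbKO and 1262, 1442 and 1224 in SD-AcPbKO. The SD libraries of both genotypes lay together, and the AcPb-/- controls were above the wild-type controls. The effects were -1.004 and -1.27 and the interaction -0.27 [-0.48, -0.05], with an unadjusted p of 0.0185 in limma.

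Genes induced by neuronal activity were bounded loosely and varied between controls. Immediate early factors of the Fos, Jun, Egr, Nr4a and Npas4 families were 4 up and 4 down in wild-type mice and 6 up and 3 down in AcPb-/- mice of 26. With a term for libraries with Xist reads the upregulated counts became 11 in each genotype. With single libraries left out, the wild-type count upregulated reached 7 (without CTL-WT 03), and the count downregulated ran from 2 (without CTL-WT 02) to 7 (without CTL-WT 01). Their median interaction was -0.07, from -0.18 to 0.17 with single libraries left out, and the median half-width of a member was 0.56. An interaction of 0.5 was excluded for 3 of them. Activity-dependent synaptic effectors had 14 up and 2 down of 30 in wild-type and 15 up and 2 down in AcPb-/- mice, with a median interaction of 0.03. Arc, which acts in receptor removal at synapses, had 5061, 16308 and 23206 normalized counts in CTL-WT, 21523, 23053 and 23700 in SD-WT, 6445, 11491 and 19264 in CTL-AcPbKO and 22859, 21797 and 20835 in SD-AcPbKO. The SD libraries of both genotypes were close together while the controls of both ran over a wide range, and the interaction was 0.08 [-1.30, 1.47]. Inhba, an activin subunit, had the highest interaction of the effectors, 0.52 [0.05, 0.99], with effects of 0.94 and 1.46. The pentraxin receptor gene Nptxr had the largest SD effect, -2.34 and -2.60, and overlaps Npcd on the same strand. MAP kinase phosphatases of the Dusp family (11 members) had a median interaction of -0.14, from -0.38 to 0 with single libraries left out. Kinases and deacetylases linked to sleep need (17 members) had -0.02, and an interaction of 0.5 was excluded for 13 of them.

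For the pathway that the deletion touches, ligands, receptors and adaptors of the IL1 family, 8 of 36 members tested were upregulated and 2 downregulated in wild-type mice and 10 and 1 in AcPb-/- mice. The 10 became 6 without CTL-AcPbKO 04. The median interaction was -0.02. An interaction of 1 was excluded for 25 members and one of 0.5 for 17. The receptor gene Il1r1 had 304, 306 and 287 normalized counts in CTL-WT, 591, 473 and 430 in SD-WT, 258, 325 and 364 in CTL-AcPbKO and 450, 600 and 493 in SD-AcPbKO. Its SD libraries were above its controls in both genotypes, with effects of 0.72 (adjusted p = 0.004) and 0.71 (adjusted p = 0.00307) and an interaction of -0.02 [-0.47, 0.44]. Il18bp, which traps interleukin-18, had the lowest interaction of members with a mean of at least 100 (-0.22, effects 0.51 and 0.29), and the brain receptor gene Il1rapl2 the highest, 0.41. The ligand gene Il1b had between 6.7 and 22.7 normalized counts in every library. An interaction of 1 was excluded for 0.874% of genes with a mean of 1 to 10 and for 44.8% of those from 10 to 100.

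Other inflammatory families gave medians near 0. They were -0.02 for TNF ligands and receptors (25 members), -0.03 for NF-kappa-B subunits and inhibitors (19), -0.04 for peptidoglycan and lipopolysaccharide sensing (31), -0.04 for interferon-stimulated genes (42) and -0.10 for cytokines and chemokines (72, of which 30 had a mean of at least 10). The 22 peptidoglycan-linked genes of the study had -0.01. That list was chosen by the study on its wild-type samples, so its counts of 7 up and 6 down in wild-type mice are not independent evidence. In AcPb-/- mice, which the study's paper did not compare, 6 were up and 5 down. The 6 downregulated in wild-type mice became 2 without CTL-WT 02, and the 5 in AcPb-/- mice became 3 without CTL-AcPbKO 05. Pglyrp1, a peptidoglycan recognition protein, had effects of 0.76 and 0.83. Genes of MHC class I and peptide loading had a median interaction of -0.15 over 28 members, with 10 downregulated in AcPb-/- mice against 3 in wild-type mice. The 10 became 4 without SD-AcPbKO 02, and the median was 0.15 in the libraries without Xist reads, a fit with 1 control of each genotype. Psmb10, an immunoproteasome subunit, had effects of -0.12 and -0.36.

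Microglia markers had the lowest median interaction of the 57 lists, -0.19. In wild-type mice 3 of 22 were upregulated and 1 downregulated (12.7% and 11.7% over all genes). In AcPb-/- mice 1 was upregulated and 9 downregulated (15.7% and 15.2% over all genes). The 3 became 1 without CTL-WT 02 and the 1 downregulated marker became 3 without SD-WT 04, and in the libraries without Xist reads the 9 became 2. The interaction was below 0 in 21 of 22 members, against 8142 of 16062 genes, and at an unadjusted p under 0.05 in 2, Trem2 and C1qc. It was also below 0 in 20 of 22 endothelial, 11 of 12 pericyte and 15 of 18 astrocyte markers and in 73 of 81 cytosolic ribosomal protein genes. In bulk tissue fewer cells of a type and less RNA per cell cannot be told apart. The normalized counts of the 22 markers summed to between 23744 and 28290 in the SD-AcPbKO libraries and to between 29671 and 32222 in the other 9, which did not overlap. The median stayed between -0.22 and -0.11 when single libraries were left out.

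Trem2, a microglial receptor for lipids, had 466, 525 and 446 normalized counts in CTL-WT, 301, 292 and 308 in SD-WT, 458, 411 and 482 in CTL-AcPbKO and 185, 181 and 233 in SD-AcPbKO. The controls of the genotypes overlapped and the SD libraries did not. Trem2 was downregulated in both genotypes, with effects of -0.67 (adjusted p = 0.00137) and -1.17 (adjusted p = 3.31e-05), an interaction of -0.51 [-0.85, -0.16] and an unadjusted p of 0.00711 in limma. Its adaptor Tyrobp had effects of -0.12 and -0.08 and an interaction of 0.04. The colony-stimulating factor receptor gene Csf1r (-0.15 and -0.40) and the chemokine receptor gene Cx3cr1 (-0.21 and -0.38) were called in AcPb-/- mice and not in wild-type mice. The complement gene C1qc had -0.05 and -0.28 and an interaction of -0.23 [-0.44, -0.02]. An interaction of 1 was excluded for all 22 markers and one of 0.5 for 13. Border macrophage markers (11) had a median of -0.004 with a half-width of 0.78.

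**Figure D5:**
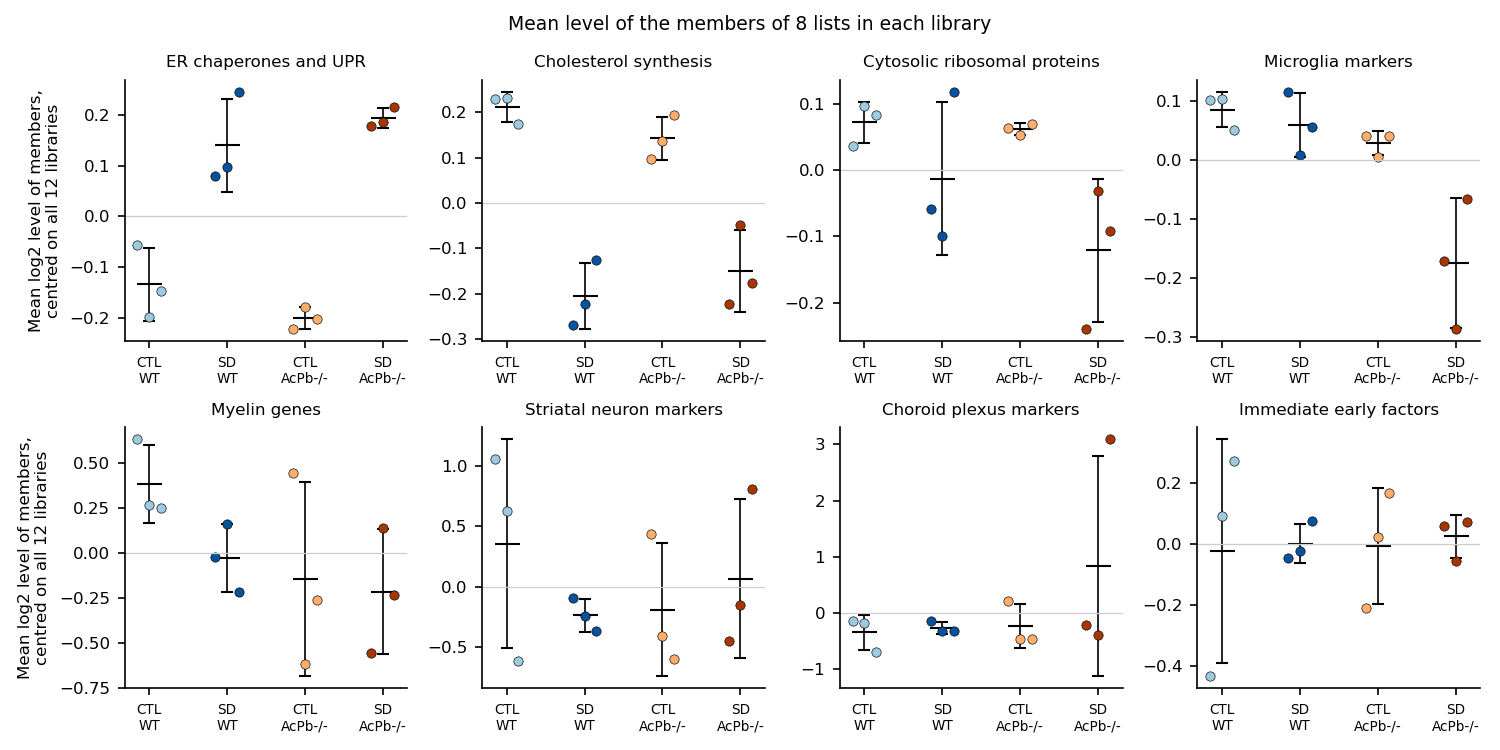
Mean deviation (log2) of the members of 8 lists from their average over all libraries, 1 point a library, with the mean and SD (n = 3) of each group. Microglia markers lie lowest in the 3 SD-AcPbKO libraries (-0.29 to -0.07), and choroid plexus markers stand out in SD-AcPbKO 04 (3.10).

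Astrocyte markers (18) had 2 up and 5 down in each genotype and a median interaction of -0.08. The 5 became 2 in wild-type mice without CTL-WT 01 and 3 in AcPb-/- mice without CTL-AcPbKO 05. Endothelial and blood-brain barrier genes (22) had a median of -0.12. Mfsd2a, a lipid transporter of the barrier, had effects of 1.30 and 1.14, and the tight junction gene Cldn5 had -0.38 (adjusted p = 0.0204) and -0.77 (adjusted p = 0.000219), with the lowest interaction of the list, -0.39 [-0.72, -0.07]. Pericyte and smooth muscle markers (12) had -0.16 and oligodendrocyte precursor genes (16) -0.02, with half-widths of 0.43 and 0.41.

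The 3 lists with the largest medians, those of myelin, striatal neurons and choroid plexus, each varied within groups. Genes of mature oligodendrocytes and myelin had a median interaction of 0.33, with 7 of 20 downregulated in wild-type mice and 3 in AcPb-/- mice. The median ran from 0.07 to 0.63 with single libraries left out and was -0.03 in the libraries without Xist reads. The 7 became 1 without CTL-WT 01, and the 3 became 0 without CTL-AcPbKO 03 and 6 without CTL-AcPbKO 04. With a term for libraries with Xist reads the counts were 14 and 7. An interaction of 1 was excluded for 8 of the 20. Opalin, a membrane protein of myelin, had effects of -1.08 and -1.01, and Mbp, a main myelin protein, -0.01 and 0.29.

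Striatal neuron markers had a median interaction of 0.61, from 0.30 to 1.11 with single libraries left out, and 1 of 15 was called with SD in wild-type and 0 in AcPb-/- mice. Without CTL-WT 03, 4 were downregulated in wild-type mice, and without CTL-AcPbKO 03, 3 were upregulated in AcPb-/- mice. The adenosine receptor gene Adora2a had 814, 489 and 99.5 normalized counts in CTL-WT, 95.7, 101 and 94 in SD-WT, 284, 102 and 94.8 in CTL-AcPbKO and 72.8, 107 and 271 in SD-AcPbKO. It was high in CTL-WT 01 and 02, CTL-AcPbKO 03 and SD-AcPbKO 04, that is, in libraries of 3 groups, and its interaction was 1.68 [-0.37, 3.72]. Choroid plexus markers had a median of 0.64 with all libraries and -0.21 without SD-AcPbKO 04. Their counts summed to 19320 in that library and to between 741 and 1029 in the other 11. Ttr, the main secreted protein of the choroid plexus, had 16186 there and at most 283 elsewhere. The part of dissection in these differences was not tested.

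Among large families of basic cell functions the interaction was bounded within narrow limits. Cytosolic ribosomal protein genes (83) had 12 up and 20 down in wild-type and 10 up and 34 down in AcPb-/- mice, and a median interaction of -0.10. It was lower at an unadjusted p under 0.05 in 10 members and higher in 0. With single libraries left out the median ran from -0.14 to -0.03, and the wild-type count of 20 from 13 (without SD-WT 02) to 31 (without SD-WT 04). Rps21 had effects of -0.66 and -0.90 and Rpl28 of 0.04 and -0.15, with interactions of -0.24 [-0.45, -0.03] and -0.20 [-0.35, -0.04]. Rps2 had -0.53 and -0.80, but 30.2% of its 100-base stretches occur elsewhere, and many ribosomal protein genes have processed copies that can share reads. An interaction of 0.5 was excluded for 66 of the 83.

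Nuclear subunits of oxidative phosphorylation (81) had 12 up and 25 down in wild-type and 10 up and 35 down in AcPb-/- mice and a median of -0.06. The 25 became 40 without SD-WT 04. Atp5e, a subunit of the ATP synthase, had effects of -1.42 and -1.66. Mitochondrial ribosomal proteins (77) had 0.01, translation factors (61) -0.003, tRNA synthetases (37) 0.001, proteasome subunits (49) -0.02 and glycolysis genes (29) -0.01. An interaction of 0.5 was excluded for 73 of the 77, 54 of the 61, 36 of the 37, 41 of the 49 and 25 of the 29. Splicing factors of the Srsf, Hnrnp and Rbm families had 35 up and 6 down of 71 in wild-type and 37 up and 7 down in AcPb-/- mice, and a median of 0.03. In the libraries without Xist reads the 35 and the 37 became 11 and 17, and without CTL-WT 02 the 6 became 3. Hnrnpa0, an RNA-binding protein, had the largest effect, -0.99 and -1.16. Zinc finger protein genes (356) had 79 up and 28 down in wild-type and 110 up and 37 down in AcPb-/- mice, with 10 higher and 7 lower at an unadjusted p under 0.05 for the interaction and a median of 0.02. Without SD-WT 02 the 79 became 52, and without CTL-WT 02 the 28 became 14.

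Neuronal families gave medians close to 0 as well. They were 0.02 for glutamate receptors (26) and GABA receptors (21), 0.04 for potassium channels (93), -0.01 for calcium, sodium and HCN channels (43), 0.03 for synaptic vesicle and active zone genes (45), 0.03 for arousal and adenosine receptors (57), -0.03 for interneuron markers (26) and 0.01 for clustered protocadherins (58). An interaction of 1 was excluded for all 45 vesicle and active zone genes and one of 0.5 for 37, against 32 and 13 of the 57 receptors for arousal transmitters, which had lower counts. The potassium channel gene Kcnj4 had effects of -0.80 and -0.87, and Syn3, a synapsin, 0.49 and 0.51. Layer markers of excitatory neurons (20) had 0.14 with a half-width of 0.51. Solute carriers (355) had 19 up and 75 down in wild-type and 22 up and 82 down in AcPb-/- mice and a median interaction of -0.01. Without SD-WT 02 the 75 became 47.

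Genes near the deletion had interactions spread around 0. Of the 72 genes tested within 5 Mb of Il1rap on chromosome 16, 2 were higher and 3 lower at an unadjusted p under 0.05 for the interaction, and the median was -0.01. Of 6 genes known to vary between C57BL/6 substrains, 1 passed an unadjusted p under 0.05. Nnt, the mitochondrial transhydrogenase, had 1003, 946.5 and 1082 normalized counts in CTL-WT, 998, 949 and 1031 in SD-WT, 1770, 1858 and 1542 in CTL-AcPbKO and 928, 1468 and 1265 in SD-AcPbKO, with an interaction of -0.49 [-0.90, -0.09]. Gabra2, a GABA receptor subunit, was above every wild-type library in all 6 AcPb-/- libraries, with effects of 0.23 and -0.15. The part of the breeding line in the interaction was not tested.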

How the data were processed

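Somatosensory cortex RNA of 12 mice was analysed. The libraries were made with a stranded mRNA kit. Per the submitters' processing notes, the authors used bcl2fastq, HISAT2 (version 2.2.1) on mm10, featureCounts and DESeq2 (version 1.31.16); their methods name HTSeq as the counter, and the strand counted is not given in the sources used here. The deposited values are a signal, read counts per gene divided by the size factor of the library in each table. Undoing the factors gave whole reads for 100% of 732630 values within 0.01 of a read. The tables' remaining columns hold the mean and the authors' own comparisons (fold changes and p-values) and were not used. Tables were rejoined on the gene symbol and the reads rescaled to common size factors. The depth ranged from 26504840 to 71857505 reads on genes.

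The plan named edgeR for counts and limma for normalized values, so limma (version 3.58.1, R 4.3.3) was fitted to log2(normalized count + 1), which understates changes of low genes, with 4 group means and a variance trend. The Benjamini-Hochberg method was used to adjust p-values. List medians used members with a mean of at least 10. Members and lists were chosen with earlier results of these data known. The genes named are Il1rap, the 5 smallest unadjusted interaction p in each direction (mean at least 100, no predicted genes), and, in each list described, the highest and lowest interaction and the largest wild-type effect, along with the study's peptidoglycan-linked genes. Some genes that this rule or the counts include are not reported by themselves here. Other members were named after their values were seen, and promoter motifs were chosen then too. Symbols matched GENCODE M21 for 23384 of 24421 genes (95.8%). Replicates all differed by more than sampling noise. Alternatives were edgeR (version 4.0.16) and DESeq2 (version 1.42.0), both run on the recovered reads, other pseudocounts, filters, thresholds, adjustments, centring, array weights, no variance trend, thinned reads, terms or subsets for Xist reads, X and Y genes left out, a replicate block and each library left out. Fits were tested on simulated data. Of 10 pairs of libraries with the same replicate number, the correlations of deviations from group means ran from -0.599 to 0.358, so the numbers were not taken as pairs. In pairs with other numbers they ran from -0.597 to 0.675. The highest was between CTL-WT 01 and CTL-AcPbKO 03, the controls without abundant Xist reads. Tables and figures were made with Python 3.11.15, pandas 2.3.3, SciPy 1.17.1 and matplotlib 3.10.9.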

Additional observations from a re-analysis of the deposited data

How the results depend on the processing

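The count of 0 genes for the interaction held in every alternative run except 3. It was 1 with DESeq2, 2 without the variance trend, and between 0 and 9 with single libraries left out, with the 9 without CTL-AcPbKO 03. Over all alternatives the smallest adjusted p ran from 0.00233 to 1. The count of SD calls in wild-type mice was 7814 with array weights, 687 in libraries without Xist reads only, 1814 with the Benjamini-Yekutieli adjustment, 2571 at an adjusted p under 0.01, 1696 with an absolute log2 value of at least 0.5, and from 3137 (without SD-WT 02) to 5372 with single libraries left out; it was 3328 without CTL-WT 02. In AcPb-/- mice it was 2097, 2995, 3886 and 2463 for the same settings after the array weights, and 4733 to 6843 with single libraries left out. The causes were not tested, other than that subsets hold fewer libraries and stricter thresholds call fewer genes. With the replicate number as a block, which the labels do not describe as a pairing, the counts were 0, 4495 and 4573. Only 2 numbers recur within each genotype. The count bounded within 1 stayed within 1.5 times its value in all alternatives run. Of 4689 values of named genes under alternatives, 246 changed sign, with no call in either fit, and 204 of 1510 list medians did so. Depth limits genes with a mean under 100, for which the intervals are wide. With 3 mice a group, 4 controls against their label for sex and SD libraries deeper than controls, an interaction under the limits given for each level of expression was not detectable.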

Other observations

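Families that the comparisons above did not use had wide intervals or small shifts. Of 44 collagen chain genes, which build the extracellular matrix, 3 were higher and 0 lower for the interaction at an unadjusted p under 0.05, with a median interaction of 0.10. Col24a1 had an SD effect of 0.01 in wild-type mice and of 1.21 (adjusted p = 0.0132 in limma) in AcPb-/- mice, and an interaction of 1.20 [0.20, 2.20]. Neutrophil markers were tested in 12 members, of which 6 had a mean of at least 10, with a median half-width of 3.01. Their counts summed to 1409 in SD-AcPbKO 04 and 482 in SD-AcPbKO 03, against 103 to 292.5 in the other 10 libraries, and the median interaction ran from -0.74 to 1.16 with single libraries left out. Lcn2, an iron-binding protein of neutrophil granules that other cells can also make, had SD effects of 2.92 and 2.89. Of 57 replication-dependent histone genes, which are made without a poly(A) tail and are under-counted by an mRNA kit, 14 had a mean of at least 10, with a median interaction of 0.17 and a half-width of 0.94. Of 245 olfactory receptor genes with a read, 15 had a mean of at least 10. Rab GTPases (59) had a median interaction of 0.03 and Trim family genes (65) of -0.02.

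The genes called for SD in opposite directions were at counts too low for a firm value. Mgst2, a microsomal glutathione transferase, had a mean normalized count of 3.24, with SD effects of -1.62 in wild-type and 1.47 in AcPb-/- mice. Mir6940, a microRNA gene, had a mean of 0.833, with SD effects of 1.15 and -1.55.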
